A study of Homo sapiens with 2 samples.

Results

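The hypoxia and glycolysis genes described here are 39 genes of the cellular response to low oxygen and of sugar breakdown. They were chosen by name, as known members of these pathways, with earlier results of these data known. They comprise 17 glycolytic enzymes and 22 other hypoxia genes (oxygen sensors and HIF subunits, HIF targets, glucose and lactate transporters, and regulators of glycolytic flux). Of the 39 genes, 36 had at least 1 probe set with a single gene symbol, out of 19775 genes on the array in all. CA9, SLC16A1 and SLC16A3 were not analysed here. Expression was measured on Affymetrix arrays in MDA-MB-231, an established line of human breast cancer cells that lack hormone receptors, to find genes regulated by the microRNA miR-203. One stable line (MB231/EV) was made with an empty control virus and the other (MB231/miR-203) with a virus that overexpresses miR-203. Both lines were grown in DMEM with 10% fetal bovine serum in an incubator at 5% CO2, and the labels name no oxygen level and no low-oxygen treatment. Each line was measured once, by 1 array, and the labels do not say whether a line is a clone or a pool.

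Cells sense oxygen through prolyl hydroxylases, encoded by the EGLN genes, which mark the alpha subunits of hypoxia-inducible factor (HIF) for the ubiquitin ligase that contains VHL. When oxygen is low, or the hydroxylases are otherwise inhibited, the alpha subunits HIF1A and EPAS1 escape destruction, pair with ARNT and switch on genes for glucose uptake, glycolysis, pH control, blood vessel growth and mitochondrial turnover. Much of this control acts on the HIF proteins, which an expression array does not measure. Many tumour cell lines run glycolysis at a high rate even when oxygen is plentiful.

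A microRNA pairs with messenger RNAs mainly through its seed, bases 2 to 8 from its 5′ end. The sequence is shown because it is the agent of the comparison. It is the RefSeq entry for the 3′ arm of miR-203a (GRCh38.p14, chr14:104117469-104117490, plus strand), with the seed in capitals. The labels do not name the arm.
hsa-miR-203a-3p: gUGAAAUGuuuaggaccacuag
No probe set was annotated to the miR-203 gene (0 probe sets), so the overexpression itself was not measured.

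HIF binds DNA at a short core, ACGTG or GCGTG. The core was searched on both strands in the 250 bases before each start site in RefSeq (GRCh38.p14), where 34 of the 39 genes had a window. The windows of 6 members, picked by name with their differences known, are shown. They set 4 members with differences of about 0.32 or more (PDK1, ANKRD37, ALDOC, ENO2) beside glycolytic genes with differences near 0 (LDHA, PGK1). Of the 4, PDK1 alone lay outside the middle 95% of genes of similar signal. Other members with differences of that size are not shown. Among them, the window of SLC2A1 held no core, HIF1A and EPAS1 had 1 core in 1 window each, and SLC2A3 and BNIP3L had no window. Where a gene has several windows, the one with the most cores is shown. Capitals mark the core on either strand, and CACGTG holds it on both strands.
PDK1, chr2:172555840-172556089, plus strand: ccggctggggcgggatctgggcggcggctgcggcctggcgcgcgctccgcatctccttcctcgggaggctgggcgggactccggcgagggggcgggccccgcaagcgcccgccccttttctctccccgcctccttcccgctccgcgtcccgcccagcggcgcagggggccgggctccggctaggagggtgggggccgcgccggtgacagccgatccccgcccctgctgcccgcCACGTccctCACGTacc
ANKRD37, chr4:185396591-185396840, plus strand: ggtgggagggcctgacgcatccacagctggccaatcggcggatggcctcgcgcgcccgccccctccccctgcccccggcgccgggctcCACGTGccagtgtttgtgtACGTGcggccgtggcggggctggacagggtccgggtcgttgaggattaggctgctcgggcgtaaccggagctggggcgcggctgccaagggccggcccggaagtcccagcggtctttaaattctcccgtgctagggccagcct
ALDOC, chr17:28576896-28577145, minus strand: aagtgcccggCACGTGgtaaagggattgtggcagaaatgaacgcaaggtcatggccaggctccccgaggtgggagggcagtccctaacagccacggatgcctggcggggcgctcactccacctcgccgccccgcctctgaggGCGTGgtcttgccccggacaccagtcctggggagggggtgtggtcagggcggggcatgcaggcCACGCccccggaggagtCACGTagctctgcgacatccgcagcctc
ENO2, chr12:6914330-6914579, plus strand: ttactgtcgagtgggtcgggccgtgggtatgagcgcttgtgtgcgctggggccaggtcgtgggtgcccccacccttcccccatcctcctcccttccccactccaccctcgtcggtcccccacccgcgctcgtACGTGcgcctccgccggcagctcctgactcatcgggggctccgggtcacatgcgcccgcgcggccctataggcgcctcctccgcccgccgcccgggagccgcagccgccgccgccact
LDHA, chr11:18394313-18394562, plus strand: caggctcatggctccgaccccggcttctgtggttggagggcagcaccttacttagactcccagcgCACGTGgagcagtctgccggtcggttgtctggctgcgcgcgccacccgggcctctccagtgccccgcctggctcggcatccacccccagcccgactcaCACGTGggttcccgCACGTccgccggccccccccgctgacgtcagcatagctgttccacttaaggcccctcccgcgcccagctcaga
PGK1, chrX:78103998-78104247, plus strand: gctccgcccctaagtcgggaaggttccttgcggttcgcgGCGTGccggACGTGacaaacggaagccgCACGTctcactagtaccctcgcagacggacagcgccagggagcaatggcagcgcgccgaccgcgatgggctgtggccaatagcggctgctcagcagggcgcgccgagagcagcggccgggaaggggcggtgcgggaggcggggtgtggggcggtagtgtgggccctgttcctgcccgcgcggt
The core was present in all of these picked windows, and members without a core or a window were not among them. LDHA and PGK1 had 3 runs of capitals each, PDK1 and ANKRD37 had 2, ENO2 had 1 and ALDOC had 4. Over all members, 37 of 62 windows (59.7%) held the core, against 53.6% of the windows of all measured genes and 43.2% of all 35116 windows in the table. The windows of members had a median GC content of 68.4%, against 64.0% for measured genes, and windows of 1 gene can overlap. By window, the core was in 19 of 37 (51.4%) for the glycolytic enzymes and in 18 of 25 (72.0%) for the other hypoxia genes. By gene, 14 of 17 glycolytic enzymes and 14 of 17 other hypoxia genes with a window held the core in at least 1 window, against 63.4% of measured genes. The count by gene also depends on how many windows a gene has. Measured other hypoxia genes had a median difference of 0.19 with the core (12 genes) and 0.14 without it (3 genes). For the glycolytic enzymes the medians were -0.0058 with it (14 genes) and -0.014 without it (3 genes). Over all measured members the order was reversed, at 0.045 with it (26 genes) and 0.11 without it (6 genes). Over all measured genes the medians were 0.014 with it and 0.015 without it. A match is a description of these letters and not a bound site.

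All values below are log2 expression values of 1 array. A difference is the value in the miR-203 line less the value in the empty-vector line. A single array per line gives no replicate error, so no difference could be tested and p-values are not given. Effects of miR-203, of separate cultures and of separate hybridisations cannot be told apart. In bulk RNA, fewer cells that express a gene and less of its RNA per cell cannot be told apart either. A gene is represented by its brightest probe set and was called measured if the higher of its values reached 5.37, the median over all probe sets. All 36 members with a probe set passed on both arrays, and so did not enter through the array where they were higher. In all, 13311 genes were measured, with a median difference of 0.013 and an SD of 0.22. Signals of different probe sets are not comparable as amounts of RNA. To give each difference a background, measured genes were divided by signal into 4 bins of equal size. The middle 95% of differences ran from -0.53 to 0.46 in the dimmest bin, from -0.47 to 0.43 and from -0.35 to 0.47 in the next ones, and from -0.30 to 0.39 in the brightest.

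Mesenchymal and epithelial markers were both measured on the arrays. VIM (vimentin) was at 13.90 with the empty vector and 13.89 with miR-203, and 5 of 6 mesenchymal markers were measured, with SPARC under the filter level. Of 8 luminal markers, 6 were measured, among them KRT18 (12.03 and 11.85), KRT8 (10.04 and 9.93), EPCAM (8.35 and 8.25), GATA3 (7.89 and 7.76), FOXA1 (6.53 and 6.27) and ESR1 (6.27 and 6.30). CDH1 (E-cadherin, 4.15 and 3.99) and PGR (3.67 and 3.67) did not reach the filter level on either array. Of markers of other cells with a probe set, 1 of 4 for leukocytes, 2 of 4 for endothelium and 2 of 5 for fibroblasts were measured, and the leukocyte gene PTPRC was not (3.65 and 3.98). The 3′ minus 5′ difference of control probe sets, a measure of RNA integrity, was 1.38 with the empty vector and 1.49 with miR-203 for ACTB, and 0.11 and 0.049 for GAPDH.

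Most hypoxia genes outside glycolysis were slightly higher in the miR-203 line, while most glycolytic enzymes hardly differed. Among the other hypoxia genes, 17 of 19 measured genes (89.5%) were higher in the miR-203 line, where 52.1% of all measured genes had a difference above 0, and their median difference was 0.19. Among the glycolytic enzymes, 6 of 17 (35.3%) were above 0 and 11 were below it, where 45.8% of all measured genes lay below 0, and the median was -0.0090. The sign of that median depends on the processing: it was 0.042 over the 9 enzymes left without probe sets that can match several transcripts (names ending in _x_at or _s_at), and the mean of the 17 was 0.012. Of those 9 enzymes, 5 were above 0 and 3 below it, so the tilt of the counts turned as well. In that setting TPI1, PGK1 and ENO1 were represented by dimmer probe sets. The one for TPI1, at 6.66 and 6.70, itself gave the median of 0.042. The one for ENO1 was at 5.43 on both arrays, close to the filter level. The gap between the medians, glycolytic minus other, was -0.20, and no test of it was possible. These shifts were small for single genes. No member reached a 2-fold difference (0 of 36 higher, 0 of 36 lower), where 0.105% of measured genes were at least 2-fold higher and 0.27% at least 2-fold lower. PDK1 and SLC2A3 were at least 1.5-fold higher (2 of 36), against 0.721% of measured genes, and no member was 1.5-fold lower (0 of 36), against 1.08%. When each gene took the median over all its probe sets, those under the filter level included, neither reached 1.5-fold (0 of 36). At 1.3-fold, a threshold chosen after the values were seen, 6 of 36 members (16.7%) were higher, against 4.29% of measured genes, and 0 of 36 were lower, against 3.11%. HIF1A, at 0.41, lay just inside that threshold, and SLC2A1, ANKRD37 and ENO2, at 0.32 each, just outside it.

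**Figure D1:**
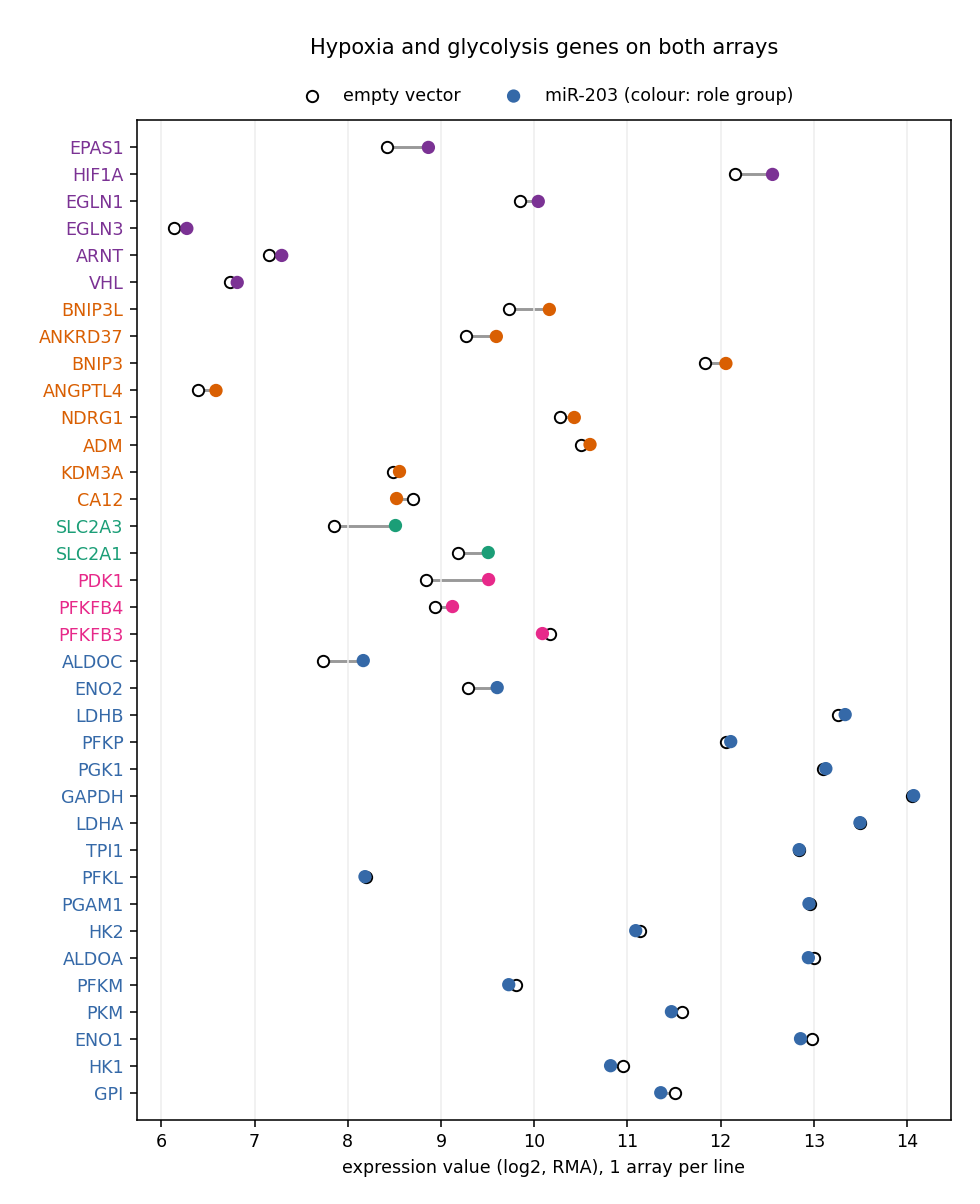
Expression values (log2, x axis) of the 36 members with a probe set in the empty-vector line (open circles) and the miR-203 line (filled circles, coloured by role), 1 array per line and no error bars. The filled circles lie to the right for 17 of the 19 hypoxia genes outside glycolysis, while most glycolytic enzymes, in blue at the bottom, overlap except ALDOC and ENO2.

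HIF1A and EPAS1, the main HIF alpha subunits, were both higher in the miR-203 line. HIF1A, the widely expressed alpha subunit, went from 12.15 to 12.56, a difference of 0.41 (1.32-fold), and 3.35% of measured genes had a larger one. It has 1 probe set here, and its difference lay above the middle 95% of the brightest bin. EPAS1, which encodes HIF-2 alpha, went from 8.42 to 8.86, a difference of 0.45 (1.36-fold), inside the middle 95% of its bin. The other EPAS1 probe sets lay under the filter level and were also above 0, at 0.28 and 0.76. The differences of the pair were close, with EPAS1 minus HIF1A at 0.041. Their partner ARNT, the constitutive beta subunit, was at 7.16 and 7.29, a difference of 0.13, and its 3 measured probe sets ran from 0.13 to 0.23.

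The genes that degrade the alpha subunits were slightly higher too. EGLN1 (PHD2), the main oxygen sensor, was at 9.85 and 10.04, a difference of 0.19, and its 3 measured probe sets ran from 0.13 to 0.28. EGLN3 (PHD3), itself a HIF target, was at 6.14 and 6.27, a difference of 0.14. Its second probe set gave 0.50, but reached the filter level on the miR-203 array alone. VHL, which recognises hydroxylated HIF, was at 6.73 and 6.81, a difference of 0.081. All 6 members of the oxygen sensing and HIF group were thus above 0, where 52.1% of all measured genes were. Their median was 0.17, and 5 of them (all but HIF1A) lay inside the middle 95% of their bin. Of the 11 measured HIF system genes that are not members, 6 were above 0.

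Among the HIF targets, 7 of 8 measured genes were above 0, where 52.1% of all measured genes were. The median difference of the 8 was 0.17. BNIP3L (NIX), a mitochondrial outer membrane protein that recruits the mitophagy machinery, was the highest of them. It went from 9.73 to 10.16, a difference of 0.43 (1.35-fold), above the middle 95% of its bin, and its second probe set gave 0.36. Its relative BNIP3 went from 11.84 to 12.06, a difference of 0.22, with 0.30 by its second probe set. Both mitophagy receptors were higher by every probe set they have here. ANKRD37, an ankyrin-repeat protein induced through HIF, went from 9.27 to 9.59, a difference of 0.32.

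The remaining targets differed by less. ANGPTL4, a secreted inhibitor of lipoprotein lipase, was at 6.39 and 6.59, a difference of 0.19. NDRG1, a stress-induced protein linked to suppression of metastasis, was at 10.28 and 10.43, a difference of 0.15. The vasodilator peptide gene ADM (adrenomedullin) was at 10.51 and 10.60, a difference of 0.094. The histone demethylase gene KDM3A was at 8.49 and 8.55, a difference of 0.065, with -0.26 by a probe set under the filter level. CA12, a membrane carbonic anhydrase that handles acid outside the cell, was the target that lay below 0. It went from 8.70 to 8.52, a difference of -0.18, and 5 of its 6 measured probe sets were below 0, from -0.20 to -0.093, against 0.22 for the dimmest of them.

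Both glucose transporters were higher by their brightest probe sets, but not by all. SLC2A1 (GLUT1), the basal glucose transporter of most cells, went from 9.18 to 9.51, a difference of 0.32 (1.25-fold), and its second probe set gave 0.18. SLC2A3 (GLUT3), a high-affinity transporter, went from 7.86 to 8.51, a difference of 0.65 (1.57-fold) that 0.413% of measured genes exceeded. Its other probe sets gave 0.059 (8.01 and 8.07) and -0.092 (7.44 and 7.35), so the 1.5-fold call rests on 1 of 3 probe sets. The first of these was brighter than the probe set used on the empty-vector array, so the latter was picked through its value on the miR-203 array. Another 2 probe sets were annotated to both SLC2A3 and its near-identical copy SLC2A14 and were left out.

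PDK1 had the largest difference of the members. It encodes a kinase that inactivates pyruvate dehydrogenase and so keeps pyruvate out of the mitochondria. It went from 8.84 to 9.51, a difference of 0.67 (1.60-fold), and 0.361% of measured genes had a larger one. Its second measured probe set gave a difference of 0.34, and the remaining one, under the filter level on both arrays, showed none. The upstream window with a pair of HIF cores printed above is 1 of 2 windows RefSeq gives PDK1, and the other held no core. The bifunctional enzymes that set fructose 2,6-bisphosphate, an activator of phosphofructokinase, lay on either side of 0. PFKFB4 was at 8.94 and 9.12, a difference of 0.18, while its dimmer probe set gave -0.10. PFKFB3 was at 10.17 and 10.09, a difference of -0.083.

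**Figure D2:**
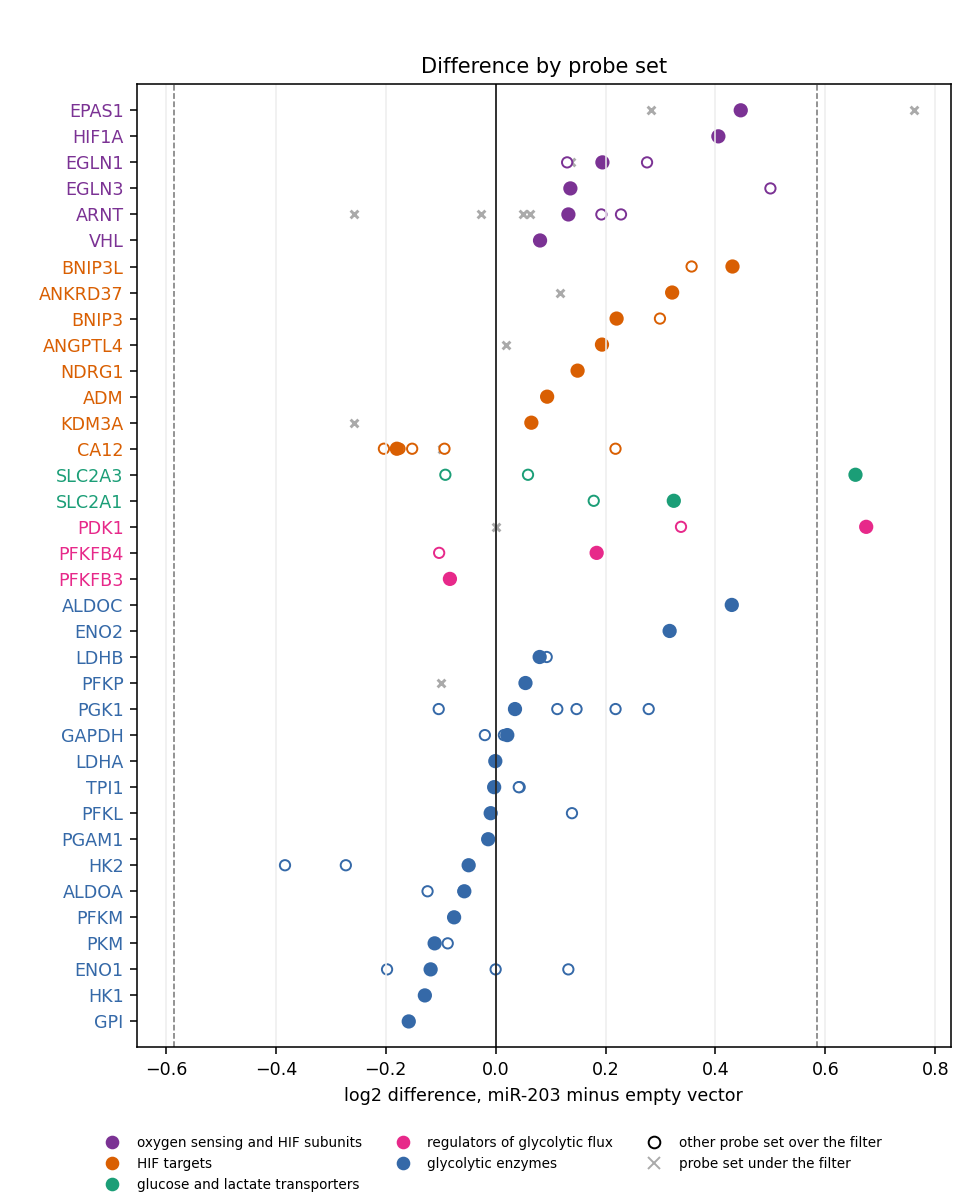
Log2 difference (miR-203 minus empty vector, x axis) of every probe set of the 36 members; filled circles are the brightest probe set of a gene, open circles its other measured probe sets, crosses those under the filter level, and dashed lines mark 1.5-fold. PDK1 and SLC2A3 pass the right-hand line by their brightest probe set, and the probe sets of SLC2A3 spread from -0.092 to 0.65.

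The chain of glycolytic enzymes itself hardly differed between the lines. The 15 enzymes other than ALDOC and ENO2, both singled out after their values were seen, had differences from -0.16 to 0.080 with a median of -0.014, all inside the middle 95% of their bins. Among the hexokinases, which trap glucose in the cell, HK1 was at 10.95 and 10.82, a difference of -0.13. HK2, the inducible form, was at 11.14 and 11.09, a difference of -0.049, and its 2 dimmer probe sets gave -0.27 and -0.38. All 3 HK2 probe sets thus lay below 0. GPI, which turns glucose 6-phosphate into fructose 6-phosphate, had the lowest difference of the enzymes, at 11.52 and 11.36, a difference of -0.16.

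The 3 subunits of phosphofructokinase, the committed step, were at -0.0090 for PFKL, -0.076 for PFKM and 0.054 for PFKP. PFKL was at 8.19 and 8.18, PFKM at 9.80 and 9.73, and PFKP at 12.05 and 12.11. In the lower part of the pathway the triose and phosphoglycerate enzymes showed differences close to 0. TPI1 was at 12.85 and 12.84, GAPDH at 14.05 and 14.07, PGK1 at 13.09 and 13.13, and PGAM1 at 12.96 and 12.95. PGK1 has 6 measured probe sets, which ran from -0.10 to 0.28, and the 2 dimmest gave the largest values, the dimmest of all having passed the filter on the miR-203 array alone. PKM (pyruvate kinase) was at 11.58 and 11.47, a difference of -0.11. The lactate dehydrogenase genes were at -0.00060 for LDHA, which was at 13.50 on both arrays, and at 0.080 for LDHB, which was at 13.26 and 13.34. Several of these enzymes have processed pseudogenes or near-identical copies, and many of their probe sets end in _x_at or _s_at, so their signals can be mixed.

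ALDOC and ENO2, the forms of aldolase and enolase best known from brain, were the enzymes that stood higher. ALDOC went from 7.74 to 8.17, a difference of 0.43 (1.35-fold) that 2.76% of measured genes exceeded. The common form ALDOA, at 12.94 with miR-203, had a difference of -0.057, so that ALDOC minus ALDOA was 0.49. ENO2 went from 9.29 to 9.60, a difference of 0.32, while ENO1 was at 12.98 and 12.86, a difference of -0.12, so that ENO2 minus ENO1 was 0.43. The 4 measured probe sets of ENO1 ran from -0.20 to 0.13. ALDOC and ENO2 have 1 probe set each here. For the hexokinase and lactate dehydrogenase pairs the gap was smaller, at 0.080 for HK2 minus HK1 and 0.081 for LDHB minus LDHA.

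The groups also differed in signal, since 14 of the 17 glycolytic enzymes lay in the brightest bin of genes, where differences spread least, against 7 of the 19 other hypoxia genes. Within that bin the 14 enzymes had a median of -0.031, ran from -0.16 to 0.080 and were above 0 in 4 cases. The 7 other hypoxia genes there had a median of 0.19, ran from -0.083 to 0.43 and were above 0 in 6 cases. Of all measured genes in that bin, 54.2% were above 0, with a median of 0.016. Over all bins, 17 of 19 other hypoxia genes and 6 of 17 enzymes lay above the median of their own bin. HIF1A, BNIP3L, SLC2A3 and PDK1 were the 4 of 36 members outside the middle 95% of their bin, each on the higher side. That range holds 95% of all measured genes by definition. SLC2A3 lay outside it only by the probe set picked through its value on the miR-203 array. The other probe sets of SLC2A3 gave 0.059 and -0.092.

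**Figure D3:**
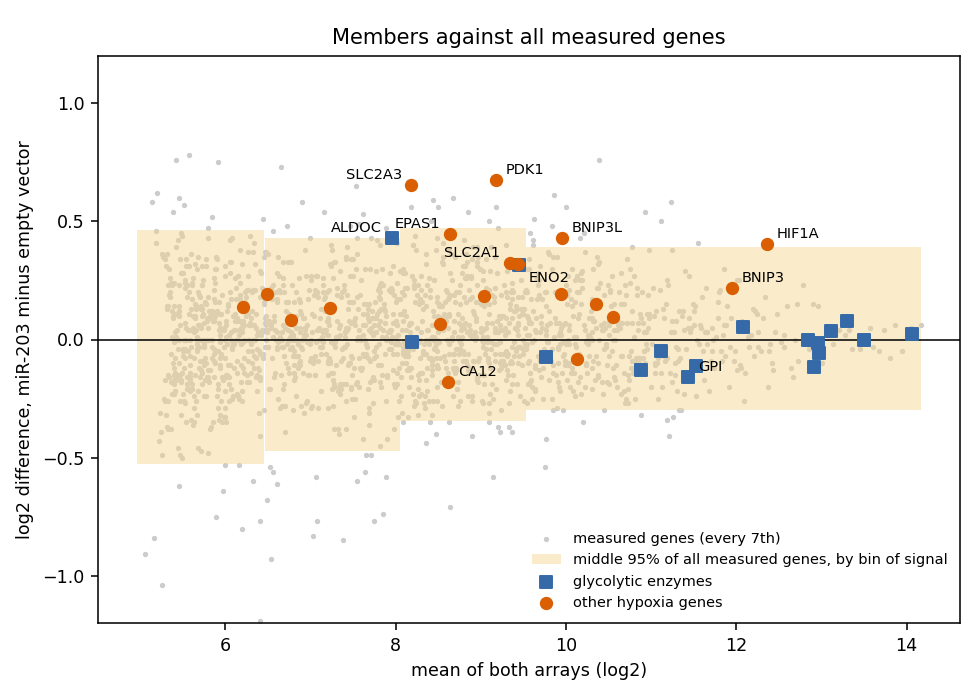
Log2 difference (y axis) against the mean log2 value of both arrays (x axis) for members and for every 7th measured gene with a difference under 1.2 in size (grey); bands give the middle 95% of all measured genes in each bin of signal. Glycolytic enzymes (squares) cluster at high signal near 0, and PDK1, SLC2A3, BNIP3L and HIF1A lie above their bands.

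The probe sets of a gene were also compared with each other. Of the 10 other hypoxia genes with several measured probe sets, 7 had all of them above 0 and 0 had all below. EGLN3 counts among them through a probe set that passed on the miR-203 array alone. With probe sets over the filter level on both arrays, a restriction chosen after seeing the data, 6 of 8 had all above 0, against 29.0% of all measured genes with several such probe sets. Of the 9 enzymes with several measured probe sets, 1 had all above 0, 3 all below and 5 were mixed. Over all measured genes with several probe sets, 28.5% had all above 0 and 52.7% had all of 1 sign.

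Genes around this pathway were examined by lists that are not members. Of 36 other hypoxia-induced genes, 31 were measured, with a median of 0.087. Of them 23 were above 0, where 52.1% of all measured genes were. In either direction 0 passed 1.5-fold, where 0.721% of all measured genes were 1.5-fold higher and 1.08% lower. PLOD2, a collagen lysyl hydroxylase, went from 9.43 to 9.90, a difference of 0.47, with 0.45 by its other probe set. BHLHE40, a transcriptional repressor linked to the circadian clock, went from 8.99 to 9.41, a difference of 0.42. LOX, the collagen cross-linking oxidase, lay on the other side, at 8.22 and 7.82, a difference of -0.40, with -0.069 by its other measured probe set. The 11 measured further genes of the HIF system had a median of 0.0026. Within it, the scaffold of the VHL ligase CUL2 was at 8.58 and 8.87 (difference 0.29), elongin C (ELOC) at 11.91 and 12.16 (0.25), and the coactivator EP300 at 7.59 and 7.32 (-0.26).

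The metabolic lists next to glycolysis had medians from -0.042 to 0.16, against 0.013 over all measured genes. The 13 measured further isoenzymes of glycolysis and its transporters had a median of 0.025. HK3 was at -0.39, PFKFB2 at 0.27, and TIGAR, a phosphatase that lowers fructose 2,6-bisphosphate, at 0.29. The 4 measured PFKFB2 probe sets ran from -0.16 to 0.62. Those that gave 0.39 and 0.62 passed the filter on the miR-203 array alone. The PFKFB2 probe sets over the filter level on both arrays gave -0.16 and 0.27. Genes of pyruvate entry to the mitochondria had a median of 0.086 over 10. Of these 10, 8 were above 0, where 52.1% of all measured genes were. The dehydrogenase subunits DLD and PDHB and the phosphatase PDP1, which opposes PDK1, were at 0.18, 0.17 and 0.18. The second probe set of PDP1 gave -0.056. Gluconeogenesis and glycogen genes had a median of -0.010 over 12, with UGP2 at 0.31, GYS1 (glycogen synthase) at -0.31 and GBE1 at -0.29. The pentose phosphate pathway had a median of -0.015 over 6, with RPE at 0.25, PGD at -0.20 and TALDO1 at -0.054. The tricarboxylic acid cycle had a median of 0.0011 over 15, and its SUCLG2 was at 0.31 with 3 probe sets up to 0.37, IDH3G at -0.21 and MDH1 at 0.21. Regulators of glycolysis outside HIF had a median of -0.042 over 10, with the AMP kinase subunits PRKAA2 and PRKAA1 at 0.25 and 0.22 and MLXIP at -0.19. Mitophagy and autophagy partners of BNIP3 had a median of 0.16 over 6, with FUNDC1 at 0.23, SQSTM1 at -0.21 and GABARAPL1 at 0.19 and 0 by its probe sets. No gene of these 7 lists reached 1.5-fold by its brightest probe set (0 higher, 0 lower), where 0.721% of all measured genes were 1.5-fold higher and 1.08% lower.

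**Figure D4:**
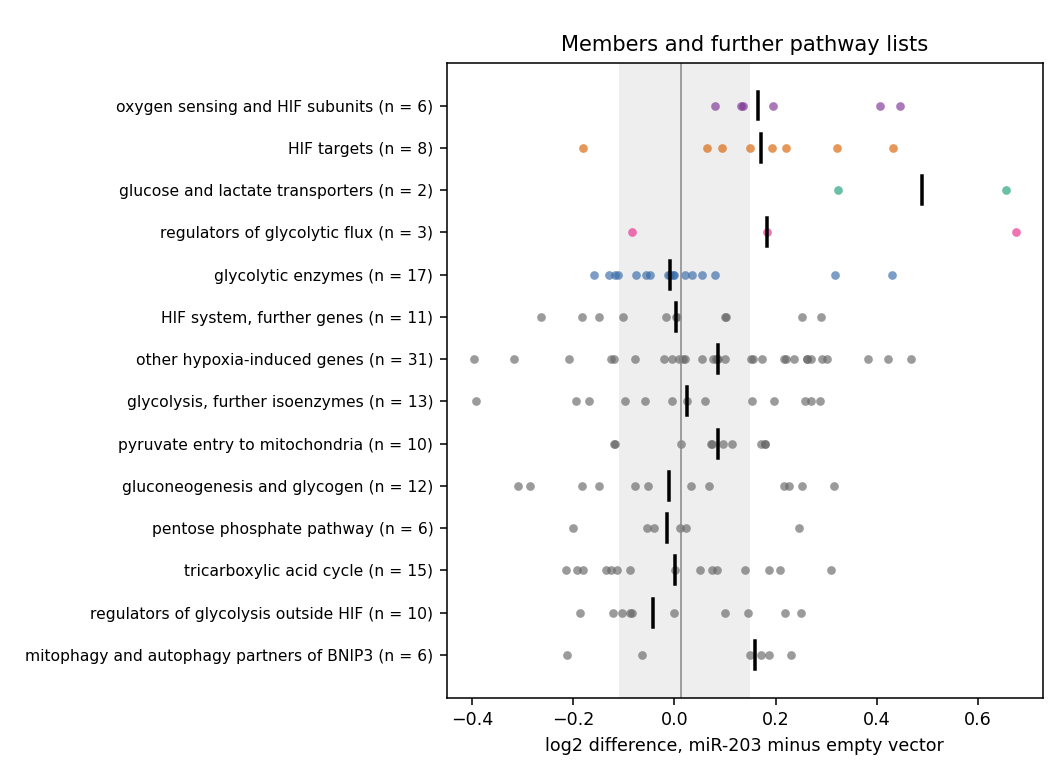
Log2 difference (x axis) of each measured gene by list, members coloured by role and further lists in grey, with a black bar at the median of each list; the grey band is the interquartile range of all measured genes, -0.11 to 0.15. The medians of the 4 member groups outside the glycolytic enzymes lie beyond the right edge of the band, and so does that of the mitophagy and autophagy list (0.16). Those of the other further lists lie inside it, and that of the glycolytic enzymes lies at -0.0090, inside it.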

How the data were processed

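The deposited values are log2 expression per probe set, made with RMA per the submitters' processing notes, which name no version; this method corrects background, forces arrays to a common distribution and summarises probes by median polish. That they are log2 was judged from their range, 1.46 to 14.18 and 1.37 to 14.23. Once sorted, the arrays agreed to within 0.095, so a shift of all genes one way would not show. Per the labels' protocols, 6 µg of total RNA was labelled with biotin.

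Of 54675 probe sets, 41091 had exactly 1 symbol in the platform annotation and 1801 had several; 62 control probe sets were left out. A gene took the probe set with the highest mean and was measured if its higher value reached 5.37. Every member is named, and of each further list up to 3 measured genes with the largest difference. The members and lists were chosen with earlier results of these data known. The number of arrays, 1 per line, limits the precision. Results were recomputed without a filter, with a filter at percentile 75, with the median over probe sets, leaving out _x_at and _s_at probe sets, a loess trend (span 0.3), centring, raising values below the filter to it, thresholds of 1.5-fold and 3-fold, list means, and PFKFB3, PFKFB4 and PDK1 counted as enzymes. A threshold of 1.3-fold was added after seeing the data. The script was tested on simulated data. Python 3.11.15, pandas 2.3.3, numpy 2.4.6 and statsmodels 0.14.6 were used.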

Additional observations from a re-analysis of the deposited data

How the results depend on the processing

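No paired analysis was possible because a single array stood for each line, and for the same reason no array could be left out. The median of the other hypoxia genes ran from 0.15 to 0.22 over the alternatives, and their mean was 0.23. The median of the glycolytic enzymes ran from -0.022 to 0.042, the highest without _x_at and _s_at probe sets, which left 9 enzymes. The gap, glycolytic minus other, ran from -0.23 to -0.16. Members at least 1.5-fold higher, 2, became 0 with the median over probe sets and 1 without _x_at and _s_at probe sets, counts added after seeing the data. With the median over probe sets, SLC2A3 was at 0.059, PDK1 at 0.34, KDM3A at -0.096 and EGLN3 at 0.32, and 16 of 19 other hypoxia genes were above 0. That median takes in probe sets under the filter level, as for PDK1 and KDM3A. Members at least 2-fold higher stayed at 0 apart from the lower thresholds, with 2 at 1.5-fold and 6 at 1.3-fold, the latter chosen after seeing the data. For all measured genes, 14 higher and 36 lower became 8 and 20 under the stricter filter (percentile 75), 96 and 144 at 1.5-fold, 3 and 6 at 3-fold and 571 and 414 at 1.3-fold, and 9 were higher with the median over probe sets.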
